A study of Mus musculus with 6 samples.

Results

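Tmem176a and Tmem176b were followed as a gene pair through 6 RNA-seq libraries of CT26, a mouse colon carcinoma line. Both genes were taken by name, which makes 2 of the 53801 genes listed in each library. The 6 libraries came from 3 groups of 2, with replicates A and B each: parental, B04 and B64. All 3 groups were CT26 cells of Balb/c origin that carried a lentiviral ClonTracer barcode library and had been selected with puromycin, grown as tumours in mice, dissociated and cultured again in RPMI. The sources differ on the material sequenced: the sample titles and tissue labels call it tumour derived from each line, whereas the study's methods and the growth protocol describe cells cultured in RPMI. It is taken here as cultured cells, and the labels give no treatment. Parental is the bulk barcoded population. B04 and B64 are lines grown from single cells, each 1 clone with its own barcode. The study picked them because those barcodes were enriched in tumours given antibodies against PD1 or against CTLA4. The sample titles call both clones resistant, and the study found their tumours more resistant than parental tumours to both antibodies combined. With 1 clone for each barcode, what belongs to the clone and what belongs to the barcode group cannot be told apart. The p-values below rest on the spread between the 2 libraries of a line, pooled over the 3 lines and drawn towards that of other genes. This spread may be technical.

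TMEM176A and TMEM176B are small multi-pass membrane proteins related to the CD20-like family. They sit in intracellular membranes of the endosomal and Golgi system, where they are described as cation channels. They are best known from dendritic cells, macrophages and RORγt-positive lymphoid cells, and TMEM176B is known to restrain the NLRP3 inflammasome, the cytosolic complex that activates caspase-1. The comparison of each clone with the parental population asks how a line with an enriched barcode differs from the mixture it came from, and the comparison of B64 with B04 asks how the 2 clones differ from each other.

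Both genes lie on mouse chromosome 6 (GRCm38, the mm10 build) and point away from each other. Tmem176b (ENSMUSG00000029810) runs on the minus strand from 48833818 to 48841496 and Tmem176a (ENSMUSG00000023367) on the plus strand from 48840919 to 48847071, so that their annotated spans share 578 bases. Over all GENCODE M21 transcripts, 81 exon bases belong to both genes, and among the basic transcripts 0 do. The start of Tmem176a-201 lies 138 bases from that of Tmem176b-203. These transcripts, of 1540 and 1414 bases, share no exact run longer than 11 bases on the same strand or 12 on the opposite strand. Whether the counting used strand is not given in the sources used here, and reads from the 81 shared exon bases cannot be told apart between the genes. The sequence between the facing start sites is shown because both genes are transcribed outward from it. It lies at chr6:48841375-48841511, is printed on the plus strand from the RefSeq promoter table for GRCm38.p6, and its capitals mark the reverse complement of the PU.1 letters GAGGAA. Other annotated starts of the pair, RefSeq's among them, lie inside it.
Tmem176b to Tmem176a: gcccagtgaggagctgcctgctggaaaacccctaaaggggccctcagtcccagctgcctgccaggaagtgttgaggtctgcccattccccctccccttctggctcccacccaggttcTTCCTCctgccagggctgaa

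This stretch of 137 bases had a GC content of 63.5% and held 0 CpG. For scale, the median RefSeq promoter window of 300 bases (250 before and 50 after a start) had a GC content of 52.7% and held 7 CpG. Tmem176a has 2 such windows and Tmem176b 3, and 392 bases lie in windows of both genes. Windows that overlap a window of another gene on the other strand were found for 11.9% of 27025 genes. PU.1 is a transcription factor of myeloid and B cells, and its letters GAGGAA occurred on either strand in 3 of the 5 member windows and in 28.3% of all 32851 windows. These 3 windows overlap and all hold the site marked in capitals above, so they are not independent finds. The other letters searched on both strands occurred in 0 of the 5 member windows. These were the glucocorticoid receptor palindrome (AGAACA, any 3 bases, TGTTCT), found in 0.00913% of all windows, and its half-site AGAACA, found in 19%. They were also the interferon response element (TTTC, any 2 bases, TTTC) at 3.44%, the AP-1 letters TGANTCA at 7.81%, the CRE (TGAC directly followed by GTCA) at 1.79% and the ROR letters TAGGTCA at 2.61%. The core promoter letters searched were CCAAT at 37.4%, the GC box GGGCGG at 35.7% and TATAAA at 13.6%. Every palindrome also holds the half-site, and a lack of these letters concerns these windows only. The palindrome is too rare for its absence from 5 windows to tell anything. From published binding data, the study reports that the glucocorticoid receptor can occupy promoter and/or enhancer sequence of Tmem176b. It also reports higher Tmem176b RNA and more accessible chromatin at Tmem176b in B04 than in parental cells. Higher RNA of the glucocorticoid receptor gene Nr3c1 in B04 is reported there too. The RNA values below come from the study's own RNA-seq of these lines, so they are not independent of its RNA results.

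The 6 libraries held between 19409204 and 23472012 expected counts, which are the fragments RSEM assigns to each gene. The mean fragment length, read from the difference between RSEM's length and effective length, was between 271.8 and 277.3 bases in both parental libraries and B04 A, and between 220.8 and 246.2 bases in B04 B and both B64 libraries. This difference moves with the B64 group, and no parental library had the short fragments. Markers of other cells were mostly absent. Ptprc, which marks all leukocytes, was at most 0.01 TPM (transcripts scaled for length and for the total of the library), and among 14 leukocyte markers 3 reached 1 TPM in any library (Cd68, Cd14 and Coro1a), 3 were at 0 in all and the summed level was 24.2 and 25.7 TPM in parental, 34.8 and 33.8 in B04 and 61.6 and 61.2 in B64. Among 11 dendritic cell markers, Zbtb46 and Cd74 reached 1 TPM and 4 were at 0. Their sum was 3.2 and 4.0 TPM in parental, 12.8 and 10.8 in B04 and 6.0 and 6.4 in B64, while Flt3 was at most 0.03 and H2-Ab1 at most 0.06. Of 5 B cell markers only Pax5 reached 1 TPM, and their sum was 0.7 and 0.6 TPM in parental, 3.4 and 4.4 in B04 and 0.4 in both B64 libraries. The 10 RORγt lymphoid markers summed to at most 0.2 TPM, the 5 endothelial markers to at most 0.2 and the 5 erythroid markers to at most 2.4. The label colon carcinoma was checked against 10 epithelial markers, of which Krt18, Krt20 and Lgals4 reached 1 TPM with sums from 23.2 to 49.0 TPM, while the defining markers Epcam and Cdh1 were at most 0.06 and 0.04 TPM.

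Tmem176a and Tmem176b were both highest in B04, intermediate in parental and lowest in B64. Tmem176a had normalized counts (expected counts divided by the library's size factor) of 1269 and 1262 in the parental libraries, 2725 and 2797 in the B04 libraries and 1026 and 1048 in the B64 libraries. Tmem176b had normalized counts of 1959 and 1983 in parental, 4070 and 4300 in B04 and 1590 and 1670 in B64. In normalized counts, both B04 libraries stood above all others by a wide margin for both genes. As group values, Tmem176a came to 1265 ± 5.02 in parental, 2761 ± 50.9 in B04 and 1037 ± 15.6 in B64, and Tmem176b to 1971 ± 16.5, 4185 ± 163 and 1630 ± 56.1 normalized counts (SD, n = 2).

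**Figure D1:**
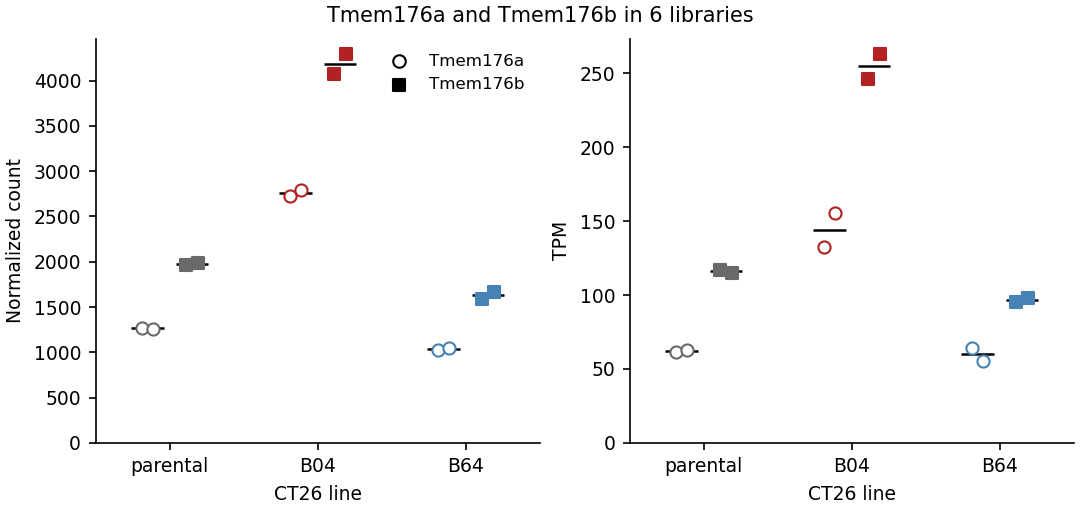
Normalized counts (left axis panel) and TPM (right panel) of Tmem176a (open circles) and Tmem176b (filled squares) in each library of the 3 CT26 lines, with lines at the mean of the 2 libraries. Both genes are highest in B04, and the gap between parental and B64 that is seen for both genes in normalized counts is not seen for Tmem176a in TPM, where the parental libraries lie at 61.42 and 63.06 and the B64 libraries at 64.38 and 55.71.

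On the TPM scale, which divides by transcript length and so allows the 2 genes to be set side by side, Tmem176b was the more abundant transcript in every library. Its level was 117.13 and 115.09 TPM in parental, 246.36 and 263.07 in B04 and 95.22 and 97.81 in B64. Tmem176a was at 61.42 and 63.06 TPM in parental, 132.55 and 155.49 in B04 and 64.38 and 55.71 in B64. For Tmem176a, B64 A thus lay above both parental libraries and B64 B below them. For Tmem176b, both B64 libraries lay below both parental libraries. With 2 libraries a group, such an order can also arise without a difference. Among genes of at least 1 TPM, Tmem176b stood above at least 94.9% of them in B04 and above 86.5% to 89.2% in the other 4 libraries. Tmem176a stood above 90.5% and 91.4% in B04 and above 77.1% to 80.7% elsewhere. Both were thus well expressed in cells that lacked Ptprc.

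In B04 against parental, both genes rose. Tmem176a rose by a log2 fold change of 1.13 (SE 0.08, 95% interval 0.97 to 1.29, 2.18-fold, DESeq2 adjusted p = 1.52e-40) and Tmem176b by 1.09 (SE 0.07, 95% interval 0.94 to 1.23, 2.12-fold, DESeq2 adjusted p = 4.53e-47). Genes called higher in B04 made up 11.2% of the 13218 tested and genes called lower 12.9%. Of the 1477 called higher, 230 had a larger fold change than Tmem176a and 245 a larger one than Tmem176b, so that the rise of the pair was large but not at the top of the list. B04 A, the B04 library with long fragments, exceeded the parental libraries by 1.10 and 1.11 on the log2 scale for Tmem176a and by 1.05 and 1.04 for Tmem176b. B04 B, with short fragments, exceeded them by 1.14 and 1.15 for Tmem176a and by 1.13 and 1.12 for Tmem176b, so the increase within the long-fragment libraries was slightly smaller. Cd74, an antigen-presentation chaperone counted among the dendritic cell markers above, also rose in B04 (log2 fold change 2.0, DESeq2 adjusted p = 6.24e-09), and Pax5, a B cell factor, rose by 5.23 (DESeq2 adjusted p = 1.41e-30). Zbtb46, the other dendritic cell marker that reached 1 TPM, gave 0.22 in B04 (DESeq2 adjusted p = 0.756). Among leukocyte markers, Cd68 was not called in B04 (DESeq2 adjusted p = 0.994). In B64 against parental it rose by 1.94 (DESeq2 adjusted p = 1.79e-27). Cd14 rose by 0.66 in B04 (DESeq2 adjusted p = 0.000215) and by 0.65 in B64 against parental (DESeq2 adjusted p = 0.000433). The part of these marker changes in the level of the pair was not tested.

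B64 against parental gave a small decrease of both genes, which for Tmem176a depended on the scale. Tmem176a fell by 0.29 on the log2 scale (SE 0.09, DESeq2 adjusted p = 0.00824) and Tmem176b by 0.27 (SE 0.08, DESeq2 adjusted p = 0.00368), while 8.87% of the 13218 genes tested were called higher in B64 and 7.45% lower. With RSEM's effective length as an offset, the difference for Tmem176a was -0.10 with a DESeq2 adjusted p of 0.743, and with limma on log2(TPM + 1) it was -0.05 with an adjusted p of 0.773. Tmem176b kept its call on both scales, at -0.31 with the offset (DESeq2 adjusted p = 0.00615) and -0.26 with limma (adjusted p = 0.0409). RSEM's length for Tmem176a, which weights its transcripts, was 1343 and 1265 bases in parental and 1065 and 1222 in B64, and for Tmem176b it was 1141 and 1128 in parental and 1106 and 1132 in B64. The call for Tmem176a was also lost without parental A (DESeq2 adjusted p = 0.113), parental B (0.078), B64 A (0.169) or B64 B (0.103). That for Tmem176b was lost without parental A (DESeq2 adjusted p = 0.0519), parental B (0.0633) or B64 A (0.164), and without B64 B it was 0.04. With fragment class as a term the log2 fold change was -0.32 for Tmem176a (DESeq2 adjusted p = 0.596) and -0.35 for Tmem176b (DESeq2 adjusted p = 0.287). Neither estimate was smaller than in the reported fit. That term rests on B04 A against B04 B alone, as only B04 held both classes. Fragment class and the B64 group cannot be told apart within parental and B64 alone, since no parental library had short fragments.

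B64 against B04 gave the largest difference, with both genes lower in B64. Tmem176a fell by 1.41 on the log2 scale (SE 0.08, DESeq2 adjusted p = 3.72e-61) and Tmem176b by 1.36 (SE 0.07, DESeq2 adjusted p = 2.52e-71). In this comparison 13.1% of the 12855 genes tested were called higher in B64 and 11.1% lower. Against B04 B, the B04 library with short fragments, the B64 libraries were lower by -1.45 and -1.42 on the log2 scale for Tmem176a and by -1.43 and -1.36 for Tmem176b. The 2 clones therefore differed by as much within the short-fragment libraries. The 3 comparisons share samples, so their values are not independent of each other. On log2(TPM + 1) with limma, 67.3% of the genes called in B04 against parental and 68.2% of those called in B64 against parental were higher in the clone, compared with 46.4% and 54.3% in the fit to counts.

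**Figure D2:**
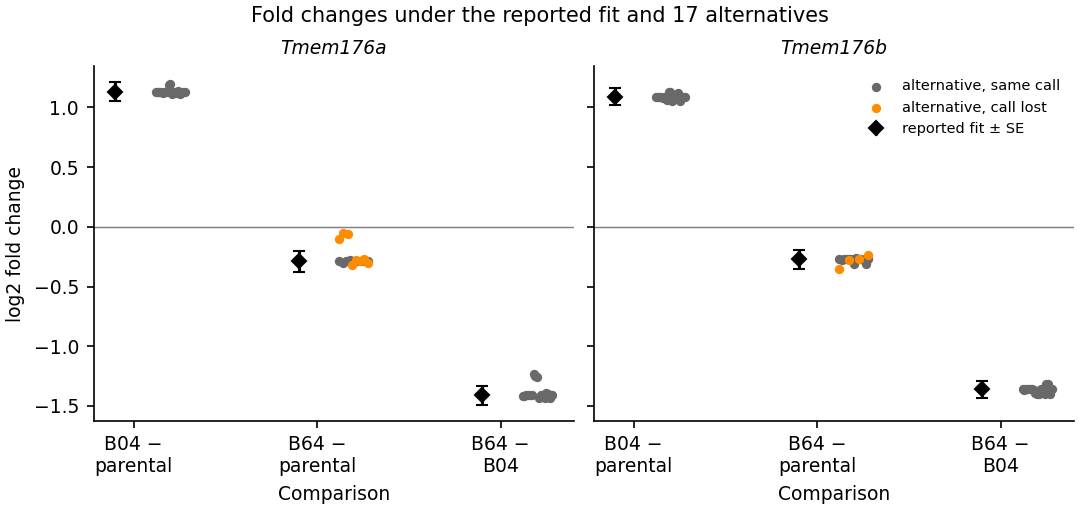
log2 fold change of Tmem176a and Tmem176b in each comparison, with diamonds for the reported fit (bars are 1 SE) and small points for 17 alternatives, orange where the call was lost. The alternatives include the reported fit judged at an adjusted p of 0.01, and the others were judged at 0.05. Calls were lost in B64 against parental, in 8 of the 17 alternatives for Tmem176a and 4 of the 17 for Tmem176b, and in none of the 17 for B04 against parental or B64 against B04.

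The 2 members kept nearly the same proportion to each other in every library. Dividing the expected counts of Tmem176a by those of Tmem176b gave 0.648 and 0.636 in parental, 0.67 and 0.651 in B04 and 0.645 and 0.628 in B64. Tmem176a thus held from 38.6% to 40.1% of the counts of the pair while its own level differed 2.18-fold between B04 and parental. The ratio in TPM was 0.524 and 0.548 in parental, 0.538 and 0.591 in B04 and 0.676 and 0.57 in B64, which is a wider spread, with B64 A the highest. B64 A was also the library with the shortest RSEM length for Tmem176a. The expected counts of both genes were whole numbers in every library, as were those of 79.2% to 80.9% of genes with a count. Whether reads from the 81 shared exon bases were split between the 2 genes was not tested.

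**Figure D3:**
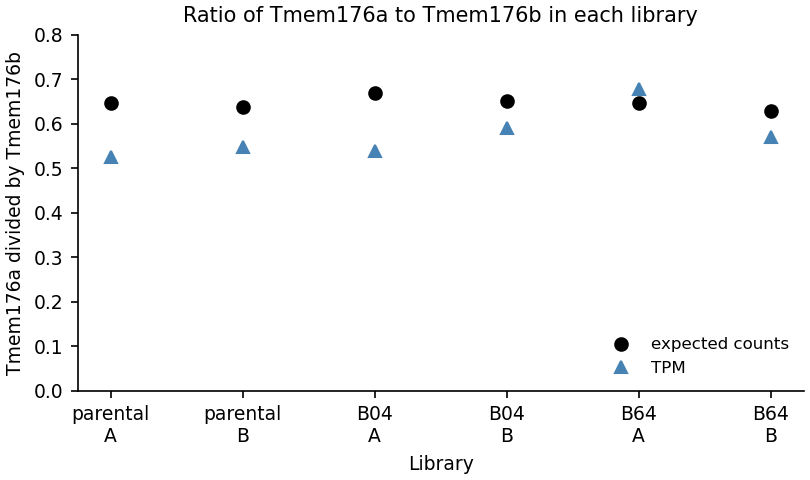
Tmem176a divided by Tmem176b in each of the 6 libraries, in expected counts (circles) and in TPM (triangles). The ratio in counts stays between 0.628 and 0.67, and the ratio in TPM reaches 0.676 in B64 A.

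Among 9877 other genes averaging at least 100 normalized counts, the gene whose log2 profile over the 6 libraries was most like that of Tmem176a was Tmem176b, and the reverse held too (Pearson r = 0.9995, 6 libraries). These points are 3 lines with 2 libraries each, so r rests mainly on the gap between B04 and the rest. For the same reason 347 genes reached an r of at least 0.95 with Tmem176a and 335 with Tmem176b. After its partner, the genes most like Tmem176a were Synpo (r = 0.9983), which encodes an actin-associated protein, Chaf1a (0.9981), a subunit of the chromatin assembly factor, Rrm2 (0.9974), a ribonucleotide reductase subunit, and Timeless (0.9971), a replication fork protein. Those most like Tmem176b were Synpo (r = 0.9987), Chaf1a (0.9961), Adamts10 (0.9954), a secreted metalloprotease family member, and Palm3 (0.9952). The size of the change differed among them. Chaf1a rose by 0.30 in B04 against parental (DESeq2 adjusted p = 0.000547) and Palm3 by 1.64 (DESeq2 adjusted p = 3.18e-24).

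No other annotated gene near the pair gave a count. All 12 other annotated genes within 100 kb had no count in any library, where a count of 0 allows up to 3 counts for counting error alone. The 8 Gimap genes within 500 kb, which encode GTPases of lymphocytes, had at most 3 expected counts. The nearest genes averaging at least 10 normalized counts were Gpnmb at 195.0 kb on one side and Zfp775 at 239.4 kb on the other.

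**Figure D4:**
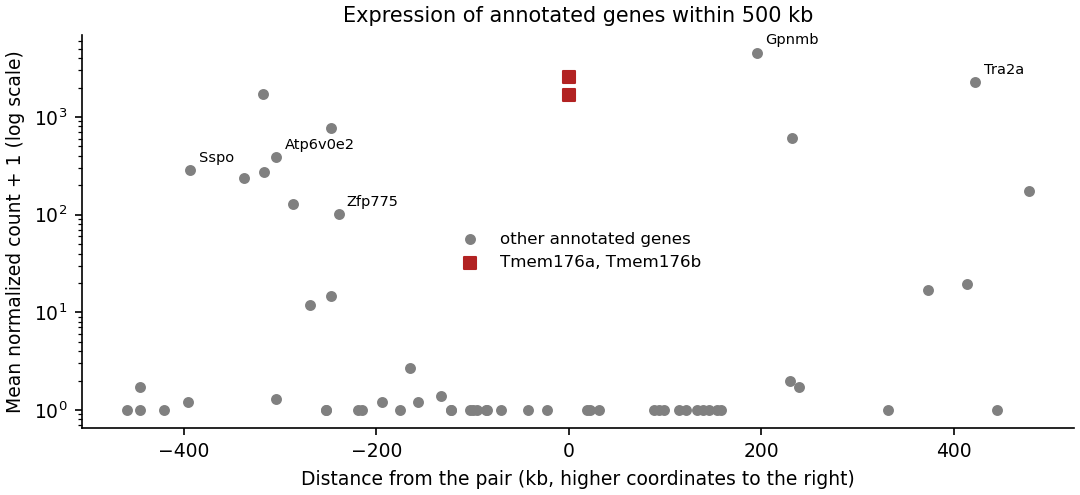
Mean normalized count plus 1 over the 6 libraries (log scale) of each annotated gene within 500 kb of the pair, by distance in kb. Tmem176a and Tmem176b stand alone at the centre, and the nearest genes with a mean of at least 10 are Gpnmb at 195.0 kb and Zfp775 at 239.4 kb.

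Of 58 neighbours within 500 kb, 16 were tested. In B04 against parental 2 were called higher and 1 lower (median log2 fold change 0.19, against 0.0 over all genes tested), in B64 against parental 3 were higher and 1 lower (median 0.16), and in B64 against B04 1 was higher and 2 lower (median 0.11). Over all genes tested, 11.2% were called higher and 12.9% lower in B04 against parental, 8.87% and 7.45% in B64 against parental and 13.1% and 11.1% in B64 against B04, so these counts of 16 lay near the background or rested on 1 to 3 genes. Without B04 B, 0 neighbours were called in either direction in B04 against parental. Gpnmb, a lysosomal glycoprotein, had normalized counts of 3913 and 3767 in parental, 4091 and 3564 in B04 and 6329 and 5689 in B64. It was thus high in the clone in which the pair was lowest, by 0.65 over parental (SE 0.08, DESeq2 adjusted p = 1.49e-14) and by 0.65 over B04 (DESeq2 adjusted p = 4.94e-15). Atp6v0e2, a subunit of the vacuolar proton pump, rose by 0.61 in B04 against parental (DESeq2 adjusted p = 0.00117) and was lower in B64 than in B04 by -0.48 (DESeq2 adjusted p = 0.0144). Tra2a, a splicing regulator, fell by 0.27 in B04 (DESeq2 adjusted p = 0.0035) and by 0.30 in B64 against parental (DESeq2 adjusted p = 0.00168). Sspo rose by 0.61 in B64 against parental (DESeq2 adjusted p = 0.00673), and the pseudogene Zfp862-ps was lower in B64 than in B04 by -0.56 (DESeq2 adjusted p = 0.027). Gm44965 was called higher in both clones against parental libraries with normalized counts of 1.0 and 0.0, against 7.3 and 32.6 in B04 and 24.9 and 16.8 in B64, and no fold is given at that level. The Gpnmb calls held under all 17 alternatives. Without single libraries the Atp6v0e2 call in B04 was lost without B04 B, its call in B64 against B04 without any 1 of the 4 libraries compared, those of Tra2a without parental A, B04 B or B64 B, that of Sspo without any 1 of the 4 compared, those of Gm44965 without parental B, B04 B or B64 A, and that of Zfp862-ps without parental A or any 1 of the 4 compared. Over all alternatives the adjusted p reached 0.137 and 0.284 for Atp6v0e2, 0.162 and 0.932 for Tra2a, 0.628 for Sspo, 0.185 and 0.882 for Gm44965 and 0.286 for Zfp862-ps.

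The wider CD20-like family gave almost no signal. Of its 19 matched genes 14 had no count in any library, and the highest was Ms4a6d with 3 expected counts and 0.15 TPM, so none was tested. The TMEM176 genes were thus measured in cells with hardly any count for their CD20-like relatives.

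Genes of the inflammasome, the complex that TMEM176B is known to restrain, were partly expressed. Of 37 genes on the list 23 were tested. In B04 against parental 4 were called higher and 3 lower (median log2 fold change 0.01, against 0.0 over all genes tested). In B64 against parental 8 were called higher and 0 lower (median 0.19). At an unadjusted p under 0.05 there were 9 higher and 1 lower, edgeR called 10 higher and 1 lower and limma on log2(TPM + 1) 6 higher and 0 lower, and the lowest count of higher genes under any alternative was 1. In B64 against B04, 9 were called higher and 2 lower (median 0.18). Over all genes tested, 11.2% were called higher and 12.9% lower in B04 against parental, 8.87% and 7.45% in B64 against parental and 13.1% and 11.1% in B64 against B04. Leaving out 1 library at a time took the 4 higher in B04 to 1 (without parental B or B04 A) or 2 (without any other) and the 3 lower to 1 (without parental A, B04 A or B04 B) or 2. In B64 against parental the 8 higher became 5 without parental A and 6 to 8 without any other. In B64 against B04 the 9 higher became 3 without B64 B, 4 without B04 B or B64 A and 7 without any other, and the 2 lower became 0 without B04 B or B64 B and 1 without any other. With the replicate block the 4 higher in B04 became 2 and the 2 lower in B64 against B04 became 1. The adaptor Pycard, which links sensors to caspase-1, had at most 5.2 expected counts in any library, the cytokine genes Il1b and Il1a at most 1, and Il18, Nlrc4 and Mefv 0.

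Among the sensors, Nlrp3 had normalized counts of 65.8 and 60.8 in parental, 109.4 and 85.5 in B04 and 157.4 and 204.0 in B64. It was highest in B64, by 1.51 over parental (SE 0.30, DESeq2 adjusted p = 7.97e-06) and by 0.89 over B04 (DESeq2 adjusted p = 0.0109), and in B04 against parental its log2 fold change was 0.63 (DESeq2 adjusted p = 0.126). Aim2, a sensor of cytosolic DNA, had normalized counts of 384.4 and 332.0 in parental, 245.3 and 250.4 in B04 and 650.1 and 644.5 in B64. Its order was the reverse of that of the pair, with a fall of 0.53 in B04 (DESeq2 adjusted p = 0.00498), a rise of 0.85 in B64 against parental (DESeq2 adjusted p = 4.75e-07) and a difference of 1.39 between B64 and B04 (DESeq2 adjusted p = 1.96e-17). P2rx7, the ATP-gated channel upstream of NLRP3, had normalized counts of 187.9 and 182.4 in parental, 213.4 and 196.5 in B04 and 345.5 and 376.4 in B64, and rose in B64 by 0.96 over parental (DESeq2 adjusted p = 9.56e-06) and 0.82 over B04 (DESeq2 adjusted p = 0.000153).

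Among the effectors, Gsdmd, the pore-forming protein of pyroptosis, had normalized counts of 437.9 and 409.6 in parental, 920.3 and 998.5 in B04 and 719.2 and 698.1 in B64. It rose in both clones, by 1.18 in B04 (SE 0.12, DESeq2 adjusted p = 5.1e-20) and by 0.74 in B64 (DESeq2 adjusted p = 9.52e-08), and was lower in B64 than in B04 by -0.44 (DESeq2 adjusted p = 0.00183). Mlkl, the effector of necroptosis, fell by 0.41 in B04 (DESeq2 adjusted p = 1.89e-06) and in B64 against parental gave 0.02 (DESeq2 adjusted p = 0.939). Txnip, a thioredoxin inhibitor that can bind NLRP3, rose by 0.24 in B04 (DESeq2 adjusted p = 0.00788) and by 0.42 in B64 (DESeq2 adjusted p = 8.74e-07). Casp1, added here as the protease the complex activates, gave 0.51 in B04 (DESeq2 adjusted p = 0.0414) and 0.65 in B64 against parental (DESeq2 adjusted p = 0.00935). Its call in B04 was lost without any 1 of the 6 libraries (adjusted p from 0.0747 to 0.408) and with the replicate block (0.0975), and that in B64 without parental A (0.278) or B64 A (0.375). The calls for Aim2 and P2rx7 in B64 against B04, Gsdmd in B04, Mlkl in B04 and Txnip in B64 held under all 17 alternatives. Single libraries decided the call of Aim2 in B04 (lost without parental A, B04 A or B04 B), Txnip in B04 (without parental B or B04 A), Nlrp3 in B64 against B04 (without B04 B, B64 A or B64 B) and Gsdmd in B64 against B04 (without B04 B or B64 B), with adjusted p over all alternatives of up to 0.187, 0.312, 0.321 and 0.112. On log2(TPM + 1) with limma the calls of Nlrp3 and P2rx7 in B64 against parental were lost too, with adjusted p over all alternatives of up to 0.08 and 0.155. With fragment class as a term, the calls in B64 against parental were lost for Gsdmd (log2 fold change 0.62, adjusted p = 0.223), Aim2 (0.82, adjusted p = 0.225), Nlrp3, P2rx7 and Casp1 (0.57, adjusted p = 0.934), and the 8 inflammasome genes called higher became 1.

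**Figure D5:**
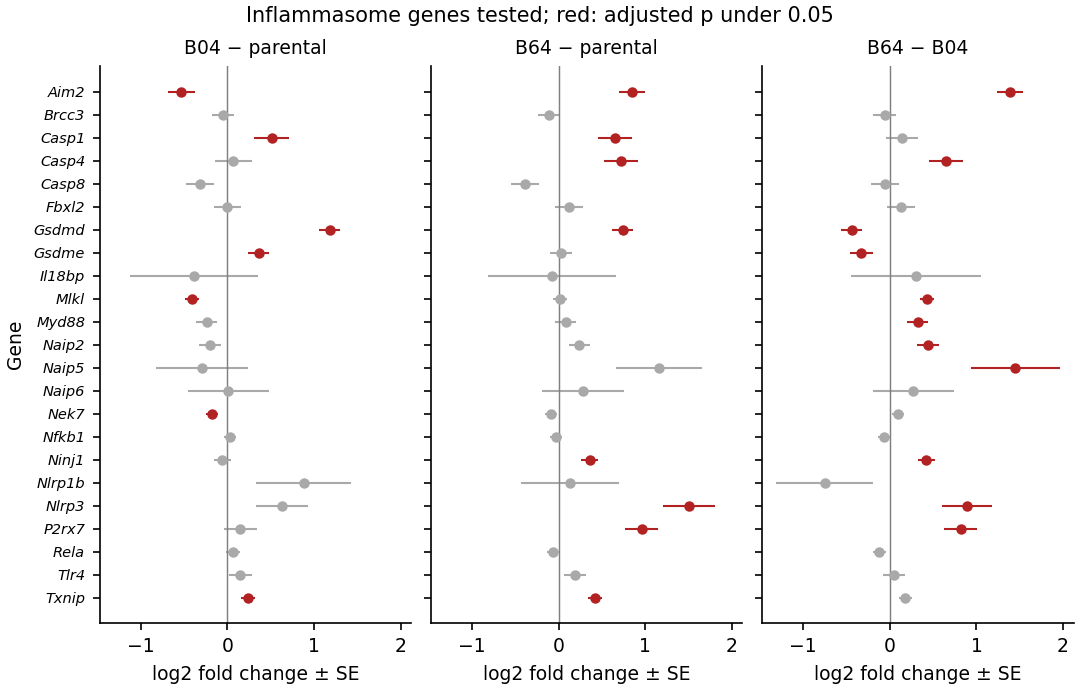
log2 fold change (points, bars are 1 SE) of the 23 inflammasome genes tested, in each of the 3 comparisons, red where the adjusted p was under 0.05. In B64 against parental 8 genes lie to the right and 0 to the left among those called, and in B04 against parental 4 lie to the right and 3 to the left.

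Other intracellular cation channels and transporters were called in both directions. Of 19 genes 14 were tested, of which 1 was called higher and 3 lower in B04 against parental (median log2 fold change -0.07), 1 higher and 2 lower in B64 against parental (median 0.0), and 4 higher and 1 lower in B64 against B04 (median 0.04). The shares over all genes tested were 11.2% and 12.9%, 8.87% and 7.45%, and 13.1% and 11.1% in the same order. Without B04 B the counts in B04 against parental were 0 higher and 1 lower, and without parental A they were 1 and 1. Without any 1 library, the 2 lower in B64 against parental became 1. Tpcn1, an endolysosomal two-pore channel, had normalized counts of 2042 and 1918 in parental, 2411 and 2349 in B04 and 1547 and 1517 in B64. It had the same order as the pair, rising by 0.27 in B04 (DESeq2 adjusted p = 0.00506), falling by 0.37 in B64 against parental (DESeq2 adjusted p = 9.5e-05) and lying lower in B64 than in B04 by -0.64 (DESeq2 adjusted p = 1.23e-13). Tmem38b, a cation channel of the endoplasmic reticulum, went the other way, with normalized counts of 74.4 and 80.4 in parental, 21.9 and 23.4 in B04 and 66.8 and 70.4 in B64 and a fall of 1.77 in B04 (SE 0.41, DESeq2 adjusted p = 0.000181). The endosomal chloride-proton exchangers Clcn3 and Clcn5 were higher in B64 than in B04 by 0.36 (DESeq2 adjusted p = 2.04e-05) and 0.56 (DESeq2 adjusted p = 5.92e-06). Mcoln1, the lysosomal calcium release channel, was higher in B64 than in B04 by 0.35 (DESeq2 adjusted p = 0.0028), and Clcn7 fell by 0.29 in B04 against parental (DESeq2 adjusted p = 0.0141). The calls for Tpcn1 and Clcn3 in B64 against B04 and Tmem38b in B04 held under all 17 alternatives. Single libraries decided the calls of Tpcn1 in B04 (lost without parental B, B04 A or B04 B), Mcoln1 (without B04 A or B64 A) and Clcn7 (without parental A, parental B or B04 B), with adjusted p over all alternatives of up to 0.149, 0.137 and 0.903. With limma on log2(TPM + 1) the calls of Tpcn1 in B64 against parental and Clcn5 in B64 against B04 were lost, with adjusted p over all alternatives of up to 0.505 and 0.0668, and the former was lost with fragment class as a term as well.

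Of 10 genes listed as possible regulators, 7 were tested against parental and 6 between the clones. In B04 against parental 1 was called higher and 0 lower, in B64 against parental 2 higher and 0 lower, and in B64 against B04 1 higher and 1 lower. Over all genes tested, the shares were 11.2% and 12.9%, 8.87% and 7.45%, and 13.1% and 11.1%, so that 1 gene of 7 is close to the background. Without B64 A or B64 B the 2 higher in B64 against parental became 0, and without any other library 1. At an unadjusted p under 0.05, 2 were higher in B04 and 3 in B64 against parental and 0 lower in either, and edgeR and limma on log2(TPM + 1) called 0 lower in both. Nr3c1, the glucocorticoid receptor, had normalized counts of 2586 and 2366 in parental, 3637 and 3463 in B04 and 2896 and 2829 in B64. It was highest in B04, like the pair, by 0.52 over parental (SE 0.07, DESeq2 adjusted p = 6.81e-11), and lower in B64 than in B04 by -0.31 (DESeq2 adjusted p = 0.000242). Unlike the pair it was above parental in B64, by 0.21 (DESeq2 adjusted p = 0.0337). This call was lost in 11 of the 17 alternatives (adjusted p up to 0.598). Among them were the reported fit judged at 0.01 and those without parental B or any 1 B04 or B64 library. The rise of Nr3c1 in B04 held under all 17, while its difference between the clones was lost with limma and with fragment class as a term (adjusted p up to 0.0551). Irf8, a transcription factor of the myeloid and dendritic lineages, had normalized counts of 70.6 and 56.1 in parental, 55.6 and 57.0 in B04 and 129.1 and 134.6 in B64. It was highest in B64, by 1.06 over parental (DESeq2 adjusted p = 0.00889) and by 1.23 over B04 (DESeq2 adjusted p = 0.00121). Its call against parental was lost without any 1 of the 4 libraries compared (adjusted p over all alternatives up to 0.886), and that against B04 without B04 A, B64 A or B64 B (up to 0.0747).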

How the data were processed

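RNA was sequenced in 6 libraries, and the authors aligned the reads to mm10 with STAR and quantified genes with RSEM. The deposited tables give an expected count and a TPM for each gene and library. The authors' TPM corrects for effective length and for the library's total, and the deposited FPKM was not used. After rounding, the counts were fitted with DESeq2 1.42.0 (R 4.3.3) over all 6 libraries, with line as the only term, the Wald test, Benjamini-Hochberg adjustment and a threshold of 0.05. Alternatives used edgeR 4.0.16, and limma 3.58.1 on log2(TPM + 1) and log2(TPM + 0.1) for genes of at least 1 TPM in 2 libraries. The alternatives counted for a gene include the reported fit judged at an adjusted p of 0.01. A call between 0.01 and 0.05 is thus counted as lost there. The DESeq2 and edgeR fits were tried on simulated counts for B04 against parental, drawn with the spread DESeq2 had estimated. The limma fits were not tried. At a simulated log2 fold change of 1, DESeq2 recovered 92 of 100 changed genes and edgeR 94. At 0.5 they recovered 70 and 73 of 100. DESeq2 made 9 false calls among 171 and edgeR 24 among 191. Positions came from GENCODE M21, and 53620 of 53801 genes matched it by identifier. Named genes were the members, expressed neighbours within 100 kb, up to 6 called genes for each list by smallest adjusted p, Nr3c1, and the 5 genes most like each member by r of log2(normalized count + 1). Casp1, the Gimap genes, Zfp775 and the markers were named in addition, after their values were seen. The same holds for Ms4a6d and for the inflammasome genes Pycard, Il1b, Il1a, Il18, Nlrc4 and Mefv, none of which was tested. The members and lists were chosen with earlier results of these data known. Intervals cover the fit's error only.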

Additional observations from a re-analysis of the deposited data

Results flagged for a closer look

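The difference between the 2 clones, tested directly as B64 minus B04, was called for both members and 15 of the named list genes. The list genes were named for a small adjusted p in any comparison, this one included, so such calls follow in part from that choice. The genes named for a profile like that of the members were not screened here. On the log2 scale it was -1.41 for Tmem176a and -1.36 for Tmem176b. Among inflammasome genes it was -0.44 for Gsdmd, 1.39 for Aim2, 0.43 for Mlkl, 0.89 for Nlrp3 and 0.82 for P2rx7. Among intracellular channels it was -0.64 for Tpcn1, 0.56 for Clcn5, 0.36 for Clcn3, 1.60 for Tmem38b and 0.35 for Mcoln1. Among neighbours and regulators it was 0.65 for Gpnmb, -0.48 for Atp6v0e2, -0.56 for Zfp862-ps, -0.31 for Nr3c1 and 1.23 for Irf8. Groups of 2 libraries are too small to look for single outlying samples.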

How the results depend on the processing

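For both members, B04 against parental and B64 against B04 kept their direction and call under all 17 alternatives, from 1.11 to 1.2 and -1.43 to -1.23 for Tmem176a and from 1.05 to 1.13 and -1.40 to -1.32 for Tmem176b. In B64 against parental, Tmem176a was no longer called with the effective-length offset (-0.10), with limma on log2(TPM + 1) (-0.05) or log2(TPM + 0.1) (-0.06), or with the fragment-length class as a term (-0.32), and without single libraries it ranged from -0.30 to -0.27. Tmem176b was no longer called with the fragment-length class (-0.35), and without single libraries it ranged from -0.31 to -0.24. Called genes in B04 against parental numbered 3181, with 1999 and 1986 by limma with pseudocounts of 1 and 0.1, 1596 with fragment class and 1755 to 2577 without single libraries. In B64 against parental they numbered 2157, with 1287 and 1242 by limma, 340 with fragment class and 988 to 1772 without single libraries. In B64 against B04 they numbered 3118, with 2051 by limma with the pseudocount of 0.1, 1625 with fragment class and 1696 to 2758 without single libraries. The causes of these drops were not tested. Same-letter libraries of the 3 lines deviated together with correlations of 0.16, 0.16 and -0.05, so the letters were not taken to pair the samples. With the replicate block the members gave 1.13 and 1.09 in B04 against parental, and 2655, 1716 and 2638 genes were called in the 3 comparisons. Alternatives on the lists and named genes were chosen after seeing the data. The list genes other than Casp1 were named for being called in at least 1 comparison, so the share called among them follows in part from that choice. Of 63 comparisons of named list genes, 42 were called, of which 12 kept the call in every alternative and 30 lost it in at least 1, and none reversed. The alternatives here include the reported fit judged at an adjusted p of 0.01. The 2 libraries a line limit the precision of each value.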
